A study of Homo sapiens with 4 samples.

Results

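The circadian clock genes described here are 10 transcription factors: the activators ARNTL, CLOCK and NPAS2, the nuclear receptors NR1D1, NR1D2 and RORA, the E-box repressors BHLHE40 and BHLHE41, and the D-box factors DBP and NFIL3. They were taken by gene symbol from 34608 genes with counts, and all 10 were found, with 45 of the 119207 transcripts. RNA was sequenced from A549, a cell line established from a human lung adenocarcinoma, grown in F12K medium. One group of 2 libraries was given 100 nM dexamethasone, a synthetic agonist of the glucocorticoid receptor, and a second group of 2 libraries received 0.02% ethanol as vehicle, each for 3 h. The groups are called dex and etoh. Both come from 1 cell line, with no other perturbation named in the labels. Separate cultures are not stated, so p-values measure only how far the libraries differ from each other, and that spread may be technical.

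In the clock of mammalian cells, ARNTL (also called BMAL1) pairs with CLOCK or NPAS2, binds E-box sequences and switches on the period and cryptochrome genes, whose proteins then block the pair. The REV-ERB receptors NR1D1 and NR1D2 silence ARNTL, and the ROR receptors, RORA among them, activate it through the same DNA element. BHLHE40 and BHLHE41 compete for E-boxes as repressors, and DBP and NFIL3 act in opposite directions on D-box sequences of output genes. Glucocorticoids are known as timing signals for clocks of peripheral tissues, the lung included.

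Dex replicates 1 and 2 had 9828448 and 11138944 aligned reads, and etoh replicates 1 and 2 had 9764159 and 11887526. Levels are given as CPM, the reads of a gene per 1000000 aligned reads, and 1 read was worth between 0.0841 and 0.102 CPM. FKBP5 and TSC22D3, both textbook glucocorticoid targets, rose by 3.38 (SE 0.11) and 4.46 (SE 0.13) on the log2 scale. Of 5 markers of epithelium, the keratins KRT7, KRT8 and KRT18 rose, by 0.66 (SE 0.10), 1.03 (SE 0.11) and 0.68 (SE 0.11), and EPCAM and CDH1 did not pass. The surfactant genes SFTPA1 and SFTPA2 had 0 reads in every library. SFTPC and the lung factor NKX2-1 had at most 1 read in any library. A further surfactant gene, SFTPB, had 0 and 3 reads in dex and 4 and 3 in etoh. These defining markers of alveolar type II cells were thus absent or nearly so. The 5 epithelial markers summed to between 7345 and 8506 CPM in dex and between 4229 and 4903 CPM in etoh. Nearly all of that sum came from the keratins. EPCAM had 8.34 to 11.3 CPM and a log2 fold change of -0.22 (SE 0.20), and CDH1 32.6 to 37.3 CPM and 0.15 (SE 0.12). The part of this keratin shift in the results below was not tested. In such bulk RNA, fewer cells that express a gene and less RNA of it per cell cannot be told apart.

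Of the 10 clock genes, 9 had enough reads for the test, and 2 of these had an adjusted p below 0.05 by edgeR (quasi-likelihood test, dex against etoh). NR1D2 rose to 2.79 times its etoh level, and BHLHE40 fell to 0.556 times its etoh level. The other 7 tested genes did not pass, and RORA had too few reads to be tested. Across all 14777 genes tested, 11.4% passed, with 6.98% higher and 4.42% lower in dex. At that background about 1 of 9 genes is called, so the count of 2 is no result about the genes as a set. The median log2 fold change of the 9 genes was -0.18, beside -0.0026 for all genes tested. The dex and etoh libraries did not overlap for 6 of the 9, beside 53.3% of all genes tested. BHLHE41, which passed the count filter only through its etoh libraries, is among the 6 and also enters the median.

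**Figure D1:**
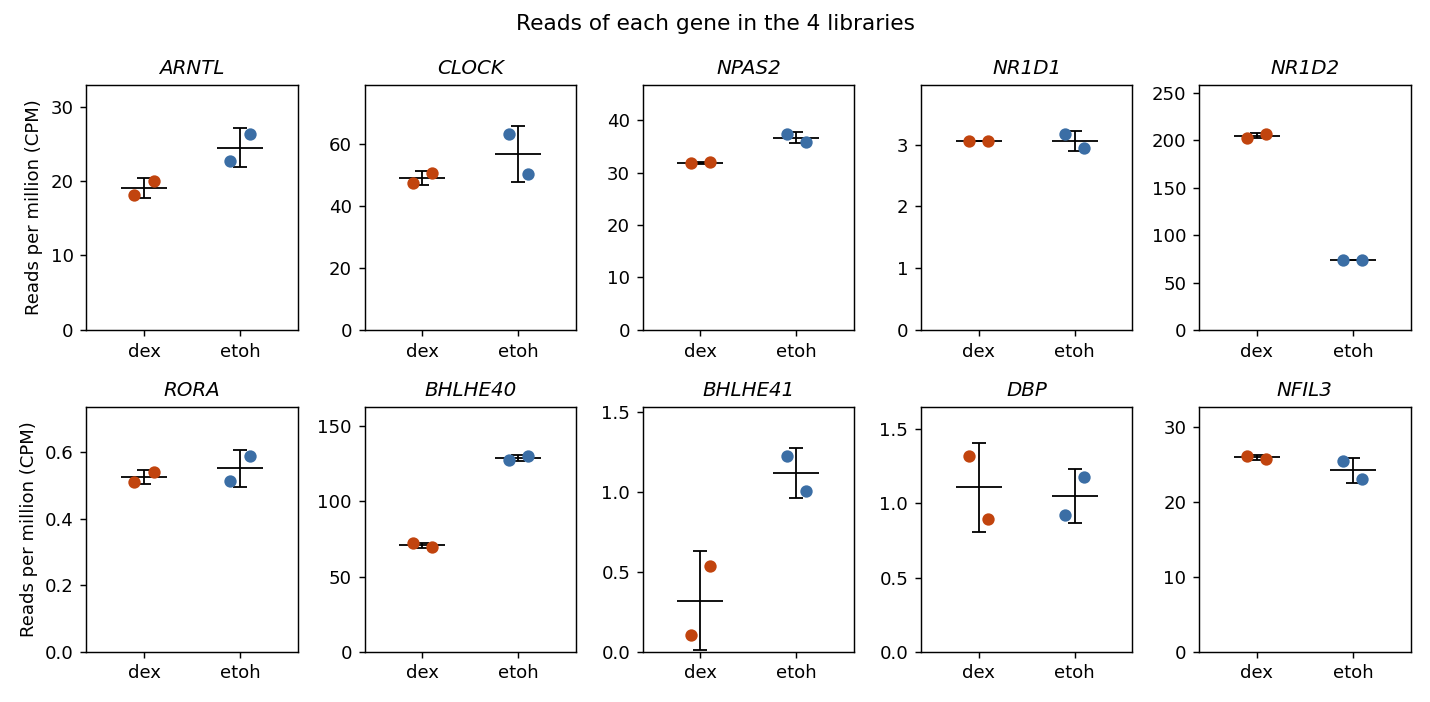
Level in CPM of each of the 10 genes, with 1 point per library, dex left of etoh, a line at the group mean and bars of 1 SD (n = 2). NR1D2 lies near 205 CPM in dex and 74.2 CPM in etoh, BHLHE40 near 70.9 CPM in dex and 129 CPM in etoh, and RORA, BHLHE41, DBP and NR1D1 stay at or below 3.17 CPM.

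**Figure D2:**
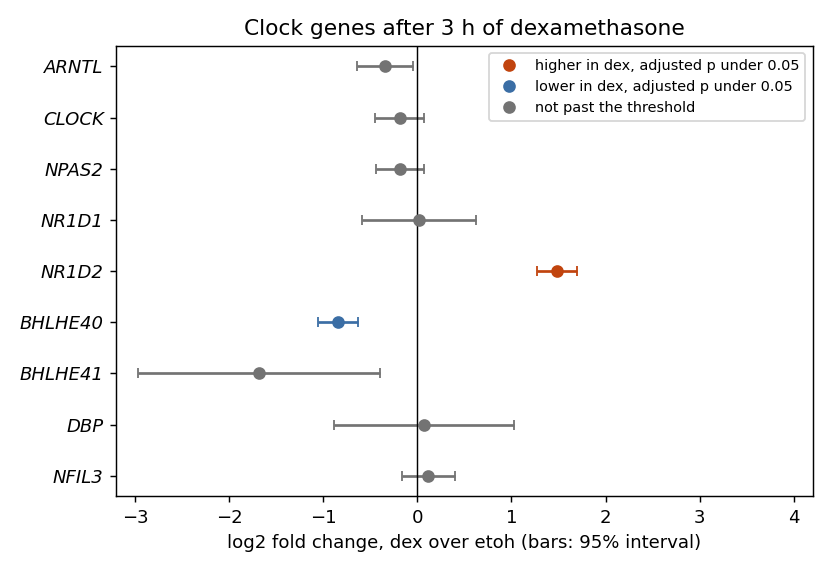
Log2 fold change of dex over etoh for the 9 tested genes, with 95% intervals from edgeR's fit. The interval of NR1D2 runs from 1.27 to 1.69 and that of BHLHE40 from -1.06 to -0.63, whereas DBP and NR1D1 have wide intervals around 0.

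Among the activators, no gene passed the test. ARNTL, the shared partner of both activator pairs, had 18.1 and 20.0 CPM in dex and 22.6 and 26.3 CPM in etoh. Both dex libraries were lower than both etoh libraries. Its log2 fold change was -0.34 (SE 0.14), with a 95% interval of -0.64 to -0.05 and an adjusted p of 0.14 by edgeR (0.026 before adjustment). CLOCK, a histone acetyltransferase and DNA-binding partner of ARNTL, had 47.4 and 50.5 CPM in dex and 63.1 and 50.1 CPM in etoh. Here etoh replicate 1 was high and the other etoh library lay among the dex libraries. Its log2 fold change was -0.19, with an interval of -0.45 to 0.07. NPAS2, a close relative of CLOCK that can replace it, had 31.7 and 32.0 CPM in dex and 37.4 and 35.9 CPM in etoh. The groups did not overlap, and the interval of its log2 fold change, at -0.18, ran from -0.44 to 0.07 (edgeR adjusted p = 0.39). NPAS2 has 5.99% of its exon bases opposite the antisense gene AC016738.1. The lower bounds of the 3 intervals correspond to 0.640 times the etoh level for ARNTL, 0.734 times for CLOCK and 0.739 times for NPAS2.

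Of the REV-ERB receptors, NR1D2 rose and NR1D1 did not pass the test. NR1D2, which encodes REV-ERB beta, had 1995 and 2303 reads in dex and 725 and 882 in etoh, which is 203 and 207 CPM in dex and 74.3 and 74.2 CPM in etoh. The libraries of each group lay close together and the groups were far apart. The log2 fold change was 1.48 (SE 0.10, edgeR adjusted p = 3.8e-10), higher in 2 of 2 dex libraries, and the 95% interval of the fold was 2.42 to 3.23. NR1D1, which encodes REV-ERB alpha, had 3.05 CPM in both dex libraries and 3.17 and 2.94 CPM in etoh. Those values rest on 30 to 35 reads per library, the dex libraries lay between the etoh libraries, and the log2 fold change was 0.02 with an interval of -0.59 to 0.63. As folds, that 95% interval runs from 0.664 to 1.54 times the etoh level, so changes of NR1D1 within it are not excluded at this depth.

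Within each library, the level of NR1D2 per transcript length was 42.7 and 42.4 times that of NR1D1 in dex, and 14.8 and 15.9 times in etoh. This ratio does not depend on how libraries are scaled. It differed by 1.47 on the log2 scale between the groups, which did not overlap. The exact two-sided permutation test gave p = 0.333, the smallest that 2 libraries against 2 can give. With NR1D1 at a log2 fold change of 0.02, this difference mostly restates the change of NR1D2. Of the NR1D1 exon bases, 9.49% lie opposite exons of THRA, a thyroid hormone receptor gene on the other strand. If counting ignored strand, reads from that part cannot be told apart from THRA. The sources used here do not say whether counting used strand. THRA rose by 1.21 on the log2 scale (SE 0.12, edgeR adjusted p = 1.8e-07), with 84.6 ± 2.37 CPM in dex and 37.0 ± 6.62 CPM in etoh (SD, n = 2 each).

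The promoter windows of NR1D2, where the largest increase among the 10 genes was measured, and of NR1D1, its paralog with no change passing the test, are shown for comparison. They are from RefSeq on GRCh38.p14, from 250 bases before to 50 bases after a start site, in the direction of the gene. Capitals mark the E-box CACGTG and the D-box TTATGTAA, searched on both strands. NR1D2 has a window at chr3:23945036-23945335 (plus strand), near the annotated starts of both counted transcripts, and a second at chr3:23945871-23946170 for a start further into the gene. The NR1D1 window is chr17:40100540-40100839 (minus strand).
NR1D2 window 1: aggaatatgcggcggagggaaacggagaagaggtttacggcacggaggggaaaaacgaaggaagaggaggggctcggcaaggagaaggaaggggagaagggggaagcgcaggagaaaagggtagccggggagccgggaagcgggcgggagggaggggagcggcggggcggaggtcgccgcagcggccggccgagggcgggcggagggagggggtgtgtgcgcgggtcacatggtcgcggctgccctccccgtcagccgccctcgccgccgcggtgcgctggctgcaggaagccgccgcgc
NR1D2 window 2: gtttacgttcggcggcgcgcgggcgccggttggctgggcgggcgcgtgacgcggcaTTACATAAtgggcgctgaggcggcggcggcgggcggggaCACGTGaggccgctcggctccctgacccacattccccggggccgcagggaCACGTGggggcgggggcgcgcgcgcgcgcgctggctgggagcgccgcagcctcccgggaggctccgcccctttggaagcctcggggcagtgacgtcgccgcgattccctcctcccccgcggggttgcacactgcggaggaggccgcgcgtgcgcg
NR1D1: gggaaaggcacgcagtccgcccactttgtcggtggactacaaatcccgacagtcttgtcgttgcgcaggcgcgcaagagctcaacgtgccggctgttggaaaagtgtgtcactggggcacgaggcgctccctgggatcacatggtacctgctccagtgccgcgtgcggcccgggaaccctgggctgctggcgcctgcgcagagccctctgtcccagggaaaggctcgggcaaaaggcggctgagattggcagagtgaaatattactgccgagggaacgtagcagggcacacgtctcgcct

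The second NR1D2 window holds 2 E-boxes, beginning at positions -155 and -105 from the start site, and 1 D-box at -194. The first NR1D2 window and the NR1D1 window hold neither. Over 35116 RefSeq promoter windows of this length, 7.26% hold the E-box, 0.886% the D-box, 13.8% the single REV-ERB and ROR site AGGTCA and 5.37% the core ACANNNTGT of the palindromic element bound by the glucocorticoid receptor. All 10 genes were matched, with 14 windows in all, ARNTL under its RefSeq symbol BMAL1. Among these windows 3 hold an E-box (NR1D2, BHLHE40 and BHLHE41), 2 hold AGGTCA (ARNTL and NFIL3), 1 holds the D-box and 0 hold ACANNNTGT. A match describes the letters only, and a factor can bind outside these windows.

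RORA, the only ROR gene of the group and an activator of ARNTL in other tissues, had 5 and 6 reads in dex and 5 and 7 in etoh. These are 0.509 and 0.539 CPM in dex and 0.512 and 0.589 CPM in etoh, all below the filter of 0.954 CPM, so it was not tested. The ratio of dex to etoh reads was 0.959 with an exact 95% counting interval of 0.383 to 2.37, which covers counting error only. Of its 6 transcripts, 3 had at least 1 read, and RORA-001 held 87.0% of the reads. The related RORB, which acts in brain, had at most 3 reads in any library.

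BHLHE40, also known as DEC1, was the gene that fell. It had 709 and 775 reads in dex and 1244 and 1551 in etoh, which is 72.1 and 69.6 CPM in dex and 127 and 130 CPM in etoh. The groups did not overlap, and libraries of a group differed by far less than the groups. The log2 fold change was -0.85 (SE 0.10, edgeR adjusted p = 3.3e-06), lower in 2 of 2 dex libraries. BHLHE40 overlaps the antisense gene BHLHE40-AS1 by 4 exon bases, and that gene had 10 and 7 reads in dex and 4 and 4 in etoh. Its relative BHLHE41, also known as DEC2, had 1 and 6 reads in dex and 12 and 12 in etoh, or 0.102 and 0.539 CPM in dex and 1.23 and 1.01 CPM in etoh. It was tested because the etoh libraries passed the filter, while both dex libraries lay below it. The log2 fold change was -1.69 (SE 0.62, edgeR adjusted p = 0.088), and the ratio of dex to etoh reads was 0.305 with an exact 95% counting interval of 0.111 to 0.730. BHLHE41 shares 4.10% of its exon bases with SSPN on the other strand, which had 10 to 20 reads per library.

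The RefSeq window of BHLHE40, chr3:4979187-4979486 (plus strand, GRCh38.p14), is shown because this gene fell and carries an E-box. Whether the E-box has a part in the fall was not tested. The annotated start of the counted transcript lies before this window, at position 4979116 of chromosome 3, so the window lies inside the gene model.
BHLHE40: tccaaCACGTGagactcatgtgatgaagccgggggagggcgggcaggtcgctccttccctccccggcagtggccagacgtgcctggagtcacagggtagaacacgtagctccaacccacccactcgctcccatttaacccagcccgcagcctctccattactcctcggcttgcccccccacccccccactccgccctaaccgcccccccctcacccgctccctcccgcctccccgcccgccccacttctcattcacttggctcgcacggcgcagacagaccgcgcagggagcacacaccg

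Its E-box, in capitals, begins at position -245. That of BHLHE41 begins at -48.

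The D-box factors did not pass the test. NFIL3, also called E4BP4, a repressor at D-boxes, had 26.1 and 25.7 CPM in dex and 25.4 and 23.0 CPM in etoh. The groups lay next to each other without overlap, and the log2 fold change was 0.12 with an interval of -0.17 to 0.40. An increase of NFIL3 beyond 1.32 times the etoh level is outside that interval. DBP, an activator at D-boxes whose mRNA cycles strongly in liver, had 13 and 10 reads in dex and 9 and 14 in etoh. These are 1.32 and 0.898 CPM in dex and 0.922 and 1.18 CPM in etoh, and the groups overlapped. Its log2 fold change of 0.07 had an interval from -0.89 to 1.03. DBP has 10.1% of its exon bases opposite exons of SPHK2, which had between 47 and 71 reads per library and a log2 fold change of 0.29 (SE 0.24).

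Levels of the 10 genes can be set against each other only per length, here as CPM per kilobase (RPKM), with each transcript's value divided by its own length and summed. The highest level in dex was that of NR1D2, at 46.8 ± 0.231 RPKM in dex and 17.0 ± 0.0287 RPKM in etoh (SD, n = 2 each). The highest in etoh was that of BHLHE40, at 20.4 ± 0.522 RPKM in dex and 37.1 ± 0.625 RPKM in etoh (SD, n = 2 each). NPAS2 had 21.5 and 21.1 RPKM in dex and 24.8 and 25.0 RPKM in etoh, between BHLHE40 and NR1D2 in both groups without overlap. Below these came NFIL3 at 11.1 to 12.5, ARNTL at 9.35 to 12.7 and CLOCK at 7.51 to 10.4. Within each group, both libraries of ARNTL lay above both of CLOCK. NFIL3 lay above ARNTL in dex, at 12.5 and 12.3 RPKM against 9.35 and 9.94 RPKM, and the pair overlapped in etoh. NR1D1 lay far below, at 1.06 to 1.15 RPKM. DBP, at 0.529 to 1.10 RPKM, overlapped NR1D1 in dex and lay below it in etoh. BHLHE41 and RORA were at most at 0.320 RPKM in any library, overlapped each other in dex and did not in etoh, where BHLHE41 was higher. The place of NPAS2 depends on short transcript models: with the gene's reads divided by the length of its most-read transcript, a scale chosen after the data were seen, it was at 7.92 to 9.33 and lay below NFIL3 in both groups. On that scale NR1D2 stayed above BHLHE40 in dex and below it in etoh. The overlap of NFIL3 and ARNTL in etoh was gone there, at 12.2 and 11.1 against 8.12 and 9.44. So was that of DBP and NR1D1 in dex, with DBP at 0.593 and 0.403 and NR1D1 at 1.10 in both libraries.

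Other ratios within a library did not separate the groups. NPAS2 over CLOCK was 2.87 and 2.60 in dex and 2.39 and 3.24 in etoh, and its size depends on the short NPAS2 transcript models. CLOCK over ARNTL was 0.803 and 0.817 in dex and 0.890 and 0.608 in etoh. NFIL3 over DBP was 11.4 and 23.3 in dex and 15.1 and 10.7 in etoh. On the log2 scale, dex minus etoh for this pair was 0.35, and -0.19 with the most-read transcript of each gene. BHLHE40 over BHLHE41 was 783 and 143 in dex, the first of these resting on the single BHLHE41 read, and 115 and 143 in etoh. RORA over NR1D2 was at most 0.0115 in any library, and its groups overlapped too. For the 6 ratios, the exact two-sided permutation p lay between 0.333 and 1, and every adjusted value was 1.

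**Figure D3:**
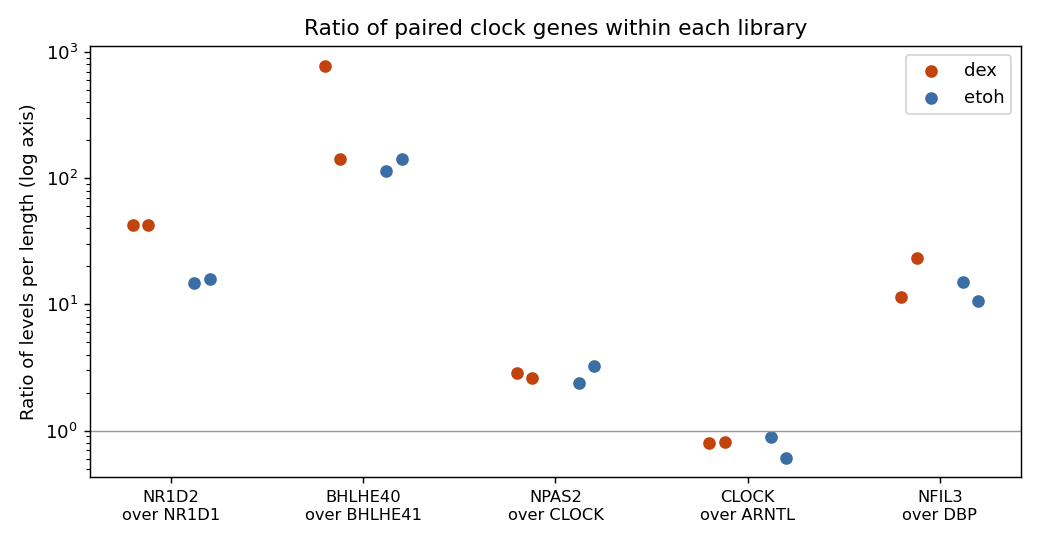
Ratio of levels per length for 5 pairs of clock genes on a log axis, with 1 point per library and dex left of etoh in each pair. NR1D2 over NR1D1 is at 42.4 and 42.7 in dex and between 14.8 and 15.9 in etoh, and for the other pairs the groups overlap.

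Reads were also counted for single transcripts. Of the 45 transcripts, 25 passed the count filter, 2 were called higher and 1 lower in dex. Over all 49857 transcripts tested the shares were 5.64% called, with 3.57% higher and 2.07% lower. Both transcripts of NR1D2 rose, NR1D2-001, of 5258 bases, by 1.47 on the log2 scale (SE 0.11), and NR1D2-002, of 3129 bases, by 1.48 (SE 0.13). NR1D2-001 held 68.1% and 72.6% of the gene's reads in dex and 70.3% and 70.6% in etoh, so its share overlapped between groups. How reads of sequence shared by these 2 models were divided is not given, so their changes are not separate results. The single called lower transcript was BHLHE40-001, at -0.85 (SE 0.11), the only transcript counted for its gene.

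ARNTL reads were spread over 18 transcripts, 7 of which held at least 10% each and 13.0% at most. Among its 9 tested transcripts, 8 were below 0 and 1 above, between -0.82 for ARNTL-203 and 0.20 for ARNTL-001, and 0 were called by edgeR. At this spread each of those 7 models had between 14 and 42 reads per library, and the sources used here do not say how reads of shared exons were divided among models. CLOCK-005, of 10304 bases, held 80.9% of CLOCK reads and had a log2 fold change of -0.14 (SE 0.13). The shorter model CLOCK-002 had 38 and 35 reads in dex and 66 and 54 in etoh and did not pass. It holds 8.61% of the CLOCK reads and is named after its values were seen. Without etoh replicate 2, the number of the 10 genes' transcripts called lower was larger than with all 4 libraries. Which transcript was added is not reported here. Of NPAS2 reads, NPAS2-001 held 47.3% and NPAS2-007 13.1%, with log2 fold changes of -0.20 (SE 0.15) and -0.14 (SE 0.24), and the remaining model above 10% was at -0.21 (SE 0.19).

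**Figure D4:**
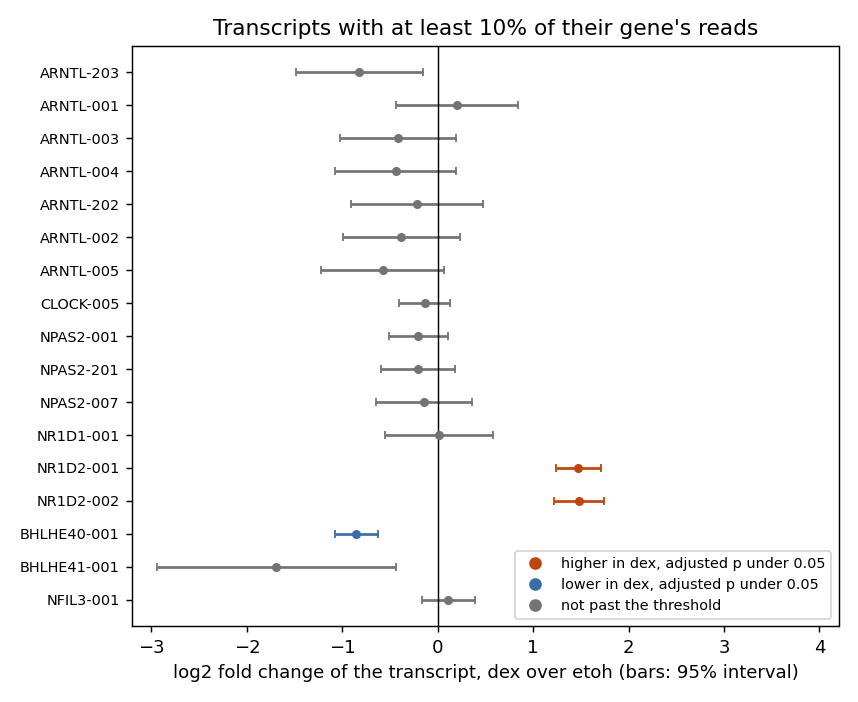
Log2 fold change of dex over etoh, with 95% intervals, for the tested transcripts that hold at least 10% of their gene's reads. The models NR1D2-001 and NR1D2-002 lie at 1.47 and 1.48, BHLHE40-001 lies at -0.85, and the ARNTL models scatter from -0.82 to 0.20 with wide intervals.

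In GENCODE 29 on GRCh38, NR1D2 lies on chromosome 3 from 23945260 to 23980618 (plus strand) and BHLHE40 on the same chromosome from 4979116 to 4985323 (plus strand). NR1D1 lies on chromosome 17 from 40092787 to 40100725 (minus strand) and ARNTL on chromosome 11 from 13276652 to 13387266 (plus strand). CLOCK lies on chromosome 4 from 55427903 to 55547138 (minus strand), and NPAS2 on chromosome 2 from 100820152 to 100996829 (plus strand). RORA lies on chromosome 15 from 60488284 to 61229319, BHLHE41 on chromosome 12 from 26120026 to 26125127, DBP on chromosome 19 from 48630030 to 48637438 and NFIL3 on chromosome 9 from 91409045 to 91423862, all on the minus strand. All 10 are protein-coding genes. No transcript of NR1D2, BHLHE40, ARNTL or NFIL3 shared 50 or more bases at 95% identity with a transcript of another gene, whereas BHLHE41, CLOCK, DBP, NPAS2, NR1D1 and RORA each shared a stretch with a gene on the opposite strand.

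Of 13 tested genes of the period and cryptochrome arm, 4 rose and 0 fell, beside 6.98% higher and 4.42% lower over all genes tested, and the median log2 fold change was 0.02. Without dex replicate 2, 1 of them was called lower. PER1 rose by 3.87 (SE 0.15) and PER2 by 0.85 (SE 0.15), both inhibitors of the ARNTL and CLOCK pair, the cryptochrome CRY2 by 1.03 (SE 0.21), and the kinase CSNK1D, which marks period proteins for breakdown, by 0.62 (SE 0.10). CRY1 was at -0.14 (SE 0.11) and did not pass. Of 6 tested members of the corepressor complex used by REV-ERB receptors, 2 rose, among them GPS2, a small subunit, by 0.59 (SE 0.17), and 0 fell. Without dex replicate 2, without etoh replicate 2, with library totals or with no count filter, 1 of the 6 was called lower. The GPS2 libraries of dex and etoh overlapped, and it did not pass with DESeq2 or without etoh replicate 1, where it was at 0.41, and without dex replicate 1 it was at 0.15. NCOR1 was at 0.22 (SE 0.10) and the deacetylase HDAC3 at -0.03 (SE 0.11).

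Of 5 relatives of the 10 genes, 3 were tested and 0 passed in edgeR or DESeq2. ARNTL2, a second partner of CLOCK, had 90.9 ± 1.01 CPM in dex and 102 ± 13.6 CPM in etoh (SD, n = 2 each) and a log2 fold change of -0.15 (SE 0.11). TEF and HLF, relatives of DBP, were at 0.27 (SE 0.29) and 0.01 (SE 0.42).

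**Figure D5:**
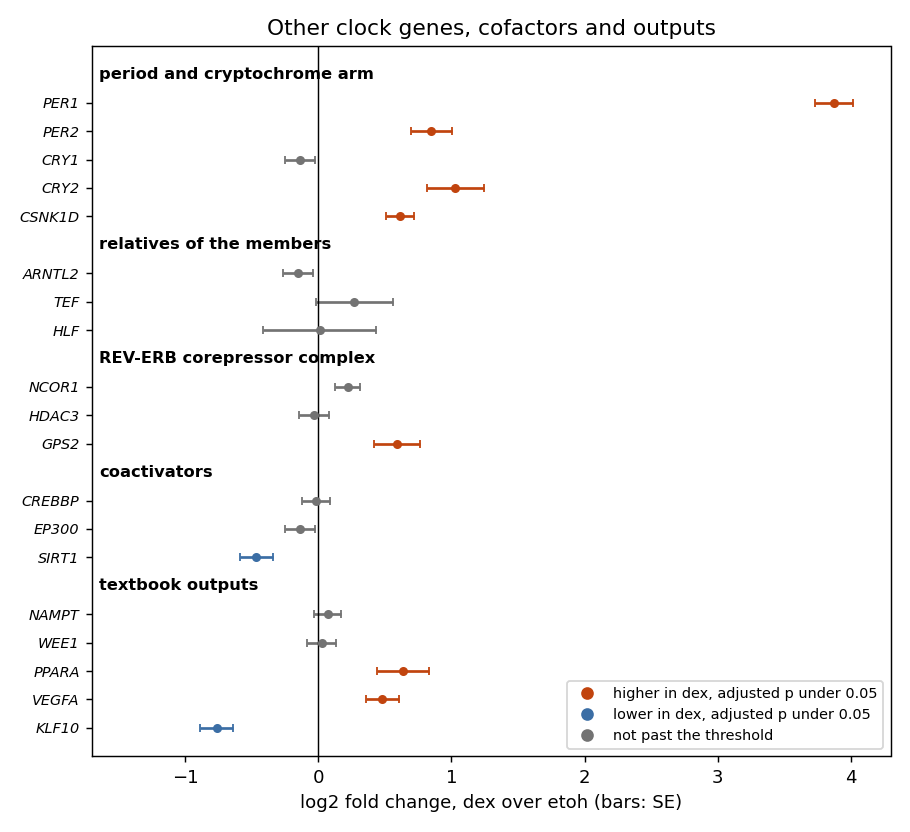
Log2 fold change of dex over etoh with SE for the genes named in the text from 5 lists. These are the period and cryptochrome arm, relatives of the 10 genes, the REV-ERB corepressor complex, cofactors, and outputs of E-box and ROR element control. The cofactors of ARNTL and CLOCK, headed coactivators in the figure, include the deacetylase SIRT1. PER1 at 3.87 stands far to the right, and KLF10 at -0.76 is the lowest of those drawn.

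Distance was taken over the 4 libraries in log2 CPM about each gene's own mean, among 9282 genes of at least 10 CPM on average. The genes nearest to NR1D2 were CPEB4, an RNA-binding protein that controls translation, and EMP1, an epithelial membrane protein. Their log2 fold changes were 1.45 (SE 0.10) and 1.52 (SE 0.14). Nearest to BHLHE40 were MALT1, a protease of NF-kB signalling, at -0.89 (SE 0.11), and CLDN1, a tight junction protein, at -0.86 (SE 0.11). With 4 libraries in 2 groups, this likeness is mostly the size of the fold change.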

How the data were processed

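RNA was measured in 2 dex and 2 etoh libraries of A549 cells. The authors deposited, per library, raw counts of aligned reads per transcript with its length, and a row of unaligned reads (17.2% to 18.7% of reads), which was left out. The tools named, per the submitters' processing notes, are Bowtie, CASAVA, DESeq2 and SAMtools, without version or role. The sources used here do not give the genome build, annotation release, alignment settings or use of strand. Replicate numbers are in the labels, with nothing to say what they share.

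Reads of all transcripts of a gene were summed, and CPM is relative to all aligned reads. Dex was compared with etoh across all genes with edgeR 4.0.16 in R 4.3.3 (filterByExpr with a minimum count of 10, TMM factors, quasi-likelihood test, prior count 0.125, two-sided, Benjamini-Hochberg over all genes tested), and in the same way across all transcripts. The SE is the log2 fold change divided by the square root of the F statistic, and 95% intervals use the fit's degrees of freedom. The fit was tested on independent libraries simulated with its own dispersions, which cannot show whether the replicates are separate cultures. Libraries of a group differed beyond sampling noise (chi-square per degree of freedom 5.37 in dex and 6.97 in etoh). The biological coefficient of variation was 8.08%. Count ratios of low genes have exact conditional binomial intervals, which cover counting error only, since reads carry no molecular identifiers. Ratios were compared with exact permutation tests (scipy 1.17.1). A count of 0 allows up to 3 counts, which is 0.252 to 0.307 CPM. Sequence shared between genes was found with BLAST 2.17.0 in GENCODE 29 transcripts, with positions on GRCh38. Promoters are from RefSeq.

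The 10 genes and the gene lists were chosen with earlier results of these data known. Named beside the 10 were listed genes that passed, or up to 2 abundant ones, transcripts with at least 10% of their gene's reads, and the 2 nearest genes to each gene that passed. ARNTL2, TEF, HLF and RORB, the epithelial markers and CLOCK-002 are named beyond this rule. Some listed genes are in the counts and not reported here by name. Markers of leukocytes, endothelium, fibroblasts and muscle were checked, and each list summed to at most 21.8 CPM in any library, with CD3E, VWF and COL1A2 at 0. Of these markers, the fibroblast collagen COL1A1 rose in dex (log2 fold change 0.56, SE 0.18, edgeR adjusted p 0.045). The 4 fibroblast markers summed to 17.1 to 21.8 CPM in dex and 11.4 to 15.7 CPM in etoh. Most of that sum was COL1A1, at 16.7 and 21.3 CPM in dex and 10.4 and 15.4 CPM in etoh. COL3A1 had 3 and 3 reads in dex and 9 and 3 in etoh, and DCN had at most 3 in any library. The part of these markers in the results was not tested. Alternatives were other normalizations, filters and tests (DESeq2 1.42.0 and voom of limma 3.58.1), a replicate block, single transcripts and removal of each library.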

Additional observations from a re-analysis of the deposited data

How the results depend on the processing

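NR1D2 passed under all 13 alternatives, at log2 fold changes of 1.46 to 1.499, and BHLHE40 under all 13, at -0.87 to -0.81. The number of the 10 genes called was 2 in each, 1 higher and 1 lower, also with the replicate block, under which 1558 genes were called in place of 1684. The deviations of same-numbered libraries correlated at -0.084, the labels do not say that a number marks anything shared, and no crossed pairing was run. ARNTL stayed below 0, at -0.43 to -0.24, with adjusted p of 0.12 to 0.51. BHLHE41 ranged over -3.28 to -1.01 and did not pass under any alternative. Its edgeR adjusted p on all 4 libraries lay between 0.058 and 0.099. BHLHE41 passed the count filter only through the etoh libraries, so this range is no support for a fall. The log2 fold changes near 0 changed sign when single libraries were left out: CLOCK at -0.36 to 0.00042, NR1D1 at -0.049 to 0.085, DBP at -0.22 to 0.34, and the transcripts ARNTL-202 at -0.73 to 0.13, CLOCK-005 at -0.29 to 0.017, NPAS2-007 at -0.30 to 0.0016 and NR1D1-001 at -0.058 to 0.071. None of these 7 passed in any of the fits run. DBP had 12 alternatives, since its most-read transcript lay below the filter, and DESeq2 gave BHLHE41 no adjusted p.

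DESeq2 called 1040 genes, 653 higher and 387 lower, and 1310 transcripts, 850 higher and 460 lower. Without each library in turn, 1111 to 1965 genes were called, 406 to 806 of them lower, and 1819 to 3393 transcripts, 1161 to 2064 higher and 633 to 1329 lower. Such a fit rests on 1 library in a group, taken to be as variable as the rest. The causes of these differences were not tested. Library totals in place of TMM moved the median of all genes to -0.02. Depth limits NR1D1, DBP, BHLHE41 and RORA, with at most 35 reads in any library.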

Other observations

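Of 9 tested outputs of E-box and ROR element control, named in textbooks for other tissues, 3 rose and 1 fell, beside 6.98% higher and 4.42% lower over all genes tested, and the median log2 fold change was 0.07. The number higher was 1 with DESeq2 or without etoh replicate 2, and the number lower was 2 without etoh replicate 1. Among those that rose, PPARA, a receptor for fatty acids, was higher by 0.63 (SE 0.19), and the angiogenic factor VEGFA rose by 0.48 (SE 0.12). KLF10, a Krüppel-like factor, fell by 0.76 (SE 0.12). PPARA lost its call with DESeq2, with the most-read transcript alone, and without dex replicate 1, dex replicate 2 or etoh replicate 2, at 0.53 to 0.65. VEGFA lost its call with DESeq2 at 0.48 and without etoh replicate 2 at 0.42. NAMPT, the enzyme that makes the NAD precursor, was at 0.07 (SE 0.10), and WEE1, a kinase that delays mitosis, at 0.02 (SE 0.11).

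Of 6 tested cofactors of the ARNTL and CLOCK pair, 0 rose and 1 fell, a count too small to set the list apart. Over all genes tested, 6.98% were higher and 4.42% lower. The gene that fell, SIRT1, is an NAD-dependent deacetylase and not a coactivator. SIRT1 fell by 0.47 (SE 0.12), with 43.0 ± 3.62 CPM in dex and 60.2 ± 7.56 CPM in etoh (SD, n = 2 each). Its call was lost on leaving out dex replicate 1 (-0.39) or etoh replicate 1 (-0.32), and on counting the most-read transcript alone (-0.48). The acetyltransferases CREBBP and EP300 were at -0.02 (SE 0.11) and -0.14 (SE 0.11).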
